A study of Drosophila melanogaster with 8 samples.

Results

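Open chromatin of wing imaginal discs in which EcR, the ecdysone receptor gene, was targeted by RNAi was compared with that of wild type (WT) wing discs. The comparison rests on 4 of the 8 libraries of the series, 2 per group, and covers all 13008 regions of the authors' deposited table together with the merged peak list of each wing group. The EcR-RNAi wings came from yw females with Vg-GAL4, UAS-Flp, a Tub>>CD2>>GAL4 cassette, UAS-GFP and UAS-EcR-RNAi line 104. In this system vg-expressing cells excise the cassette and then drive the hairpin constantly, so cells of the disc that never expressed vg need not carry it. WT wings came from females whose labels list no altered allele, and no library carries the driver and cassette without the hairpin, so hairpin, transgenes and stock background cannot be told apart. Both groups were wandering larvae, labelled -6 h relative to puparium formation, raised at the same temperature, with at least 40 dissected tissues as the stated minimum. WT leg discs and WT salivary glands, 2 libraries each, serve below only as a second view of the same regions.

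Ecdysone is the steroid hormone that times moulting and metamorphosis in flies. It binds a heterodimer of EcR and Ultraspiracle (usp), which sits on DNA as an activator when loaded with hormone and with corepressors when empty, so loss of EcR can both remove activation and lift repression. The late larval pulse induces a small set of early genes, many of them transcription factors, that carry the response onward. In the wing disc this precedes eversion and the switch from growth to differentiation. The assay was FAIRE-seq, which recovers nucleosome-poor DNA after crosslinking and phenol extraction, and the comparison addresses how open chromatin of the wing depends on the ecdysone receptor.

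EcR-RNAi wings lost and gained accessibility at a small part of the open genome. Calls required an adjusted p under 0.05 (authors' DESeq2 table) and a log2 fold of 1 or more in size. By this rule 99 regions rose in EcR-RNAi wing (0.789% of the 12543 regions with an adjusted p) and 156 fell (1.24%), 2.03% in all, in the authors' deposited table. Most changes were modest: the median size was a log2 fold of 1.21 for regions that rose, leaving out 6 for which no fold is given, and 1.15 for those that fell, a 2.31-fold and a 2.22-fold difference computed from the authors' deposited table. On adjusted p alone, 675 regions were higher in EcR-RNAi wing (5.38%) and 1302 lower (10.4%) in the authors' deposited table. Centring all folds on their median of 0.08 turned the balance, giving 139 regions higher in EcR-RNAi wing and 120 lower (53.7% higher, against 38.8% as deposited). The smallest called log2 fold was 1.00 in each direction, and the largest left uncalled by the floor was also 1.00, in the authors' deposited table.

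**Figure D1:**
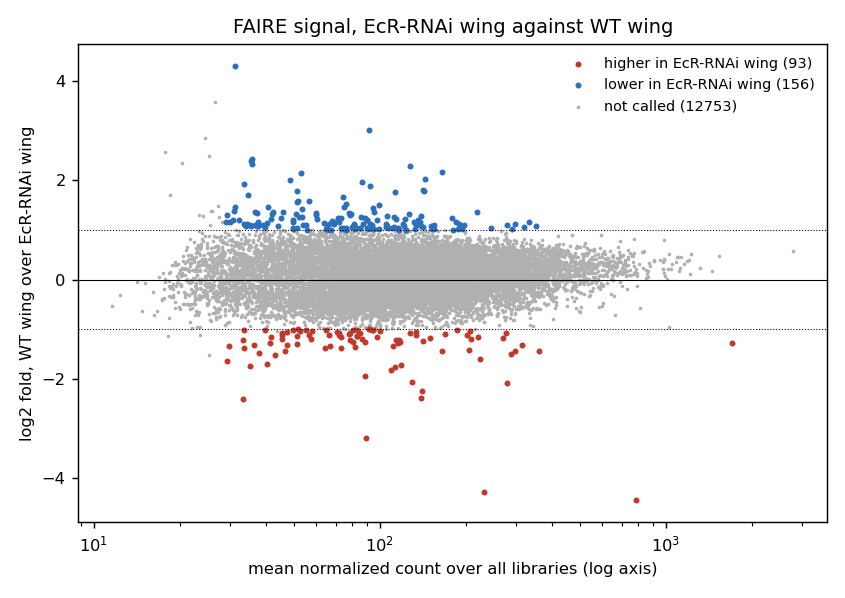
Each point is 1 region, with the mean normalized count over all libraries on a log axis and the authors' log2 fold change of WT wing over EcR-RNAi wing, so red points below 0 are higher in EcR-RNAi wing and blue points above 0 lower. Of the 99 regions that rose, 93 are drawn, and 6 without an interpretable fold are left out. Most called regions lie just past the dotted lines at a log2 fold of 1.

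Levels per group are given below as estimated normalized counts, worked out from the authors' mean count and their 3 folds against WT wing. They carry no replicate spread, because the authors' deposited table holds group comparisons and no value per library. Nothing in the labels ties the 2 libraries of each group to separate crosses, so the adjusted p measures only the spread between libraries. The mean count is pooled over all 8 libraries, so the spread of the leg and gland libraries may enter the SE and adjusted p as well. The SE of the fold carries the precision: its median in the authors' deposited table was 0.22, and it was 0.32 in the 3252 regions with the lowest counts and 0.16 in the 3252 with the highest. On adjusted p alone strong regions leaned toward WT: of those with the highest counts 18.0% were lower in EcR-RNAi wing and 5.97% higher. Of the tested regions with the lowest counts 5.85% were lower and 2.58% higher, so both shares were larger where the SE was smaller. With the fold floor the highest counts leaned the other way, 0.492% higher in EcR-RNAi wing and 0.246% lower. At the lowest counts these shares were 1.29% higher and 2.33% lower. As a check of tissue, 1 region each at the wing disc genes vg, sd, nub, ap, pdm2 and wg, the one with the highest mean count over all 4 tissues, had estimated counts of 197 to 527 in EcR-RNAi wing and 140 to 645 in WT wing. These regions do not set wing apart, since leg had 147 to 713 and gland 118 to 259 at them. Picking by the mean over all tissues favours shared regions, and other regions of these genes can differ by tissue. For example, the vg region at 2R 12888321 to 12889878 had 605 in EcR-RNAi wing, 404 in WT wing, 158 in leg and 156 in gland. Of the 6 regions picked the one at ap passed the adjusted p alone (log2 0.63 lower in EcR-RNAi wing, SE 0.16, adjusted p = 0.00204, authors' deposited table).

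The locus of the targeted gene itself changed in both directions. EcR held 8 regions, and their estimated counts ranged from 42.4 to 421 in EcR-RNAi wing and from 34.7 to 415 in WT wing. A region inside the gene at 2R 6093264 to 6094021 had an estimated 341 in EcR-RNAi wing, against 72.3 in WT wing, 66.4 in WT leg and 81.3 in WT salivary gland. It thus stood apart in EcR-RNAi wing from all 3 wild type tissues, by 4.72-fold over WT wing (log2 2.24, SE 0.23, adjusted p = 1.86e-19, authors' deposited table). A second region, at 2R 6169462 to 6169719 and 504 bp beyond the nearest gene end, had 85.7 in EcR-RNAi wing and 34.7 in WT wing (log2 1.30 higher in EcR-RNAi wing, SE 0.31, adjusted p = 0.0015, authors' deposited table). In the opposite direction, the region inside EcR at 2R 6108498 to 6109115 had 122 in EcR-RNAi wing and 246 in WT wing. Its fall was 1.01 in log2 (SE 0.23, adjusted p = 8.57e-04, authors' deposited table), a call that ended with centred folds (0.93). The other 5 regions of EcR were not called, including the most open one, with 421 in EcR-RNAi wing and 415 in WT wing.

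**Figure D2:**
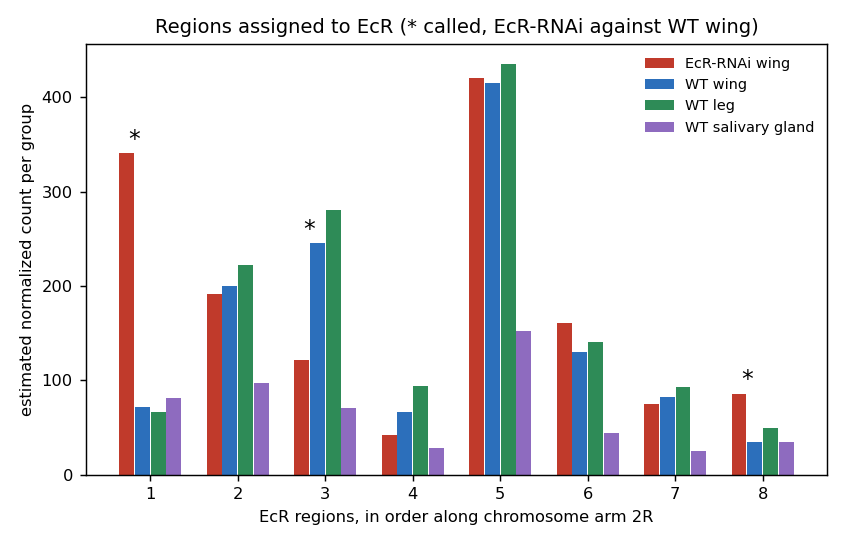
Bars give the estimated normalized count of each of the 8 regions assigned to EcR, numbered along the arm, in EcR-RNAi wing, WT wing, WT leg and WT salivary gland, and stars mark called regions. In the first region EcR-RNAi wing reached 341, and the 3 wild type tissues lay between 66.4 and 81.3.

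Regions at other loci named in the genotype were examined next. The eye pigment transporter gene w, mutant in yw flies and a usual marker of fly transgenes, had both of its regions higher in EcR-RNAi wing. The one of higher count, at X 2788995 to 2793294, where w lies within kirre, had 2153 in EcR-RNAi wing and 888 in WT wing (log2 1.28 higher in EcR-RNAi wing, SE 0.32, adjusted p = 0.00254, authors' deposited table). That region was also high in WT leg (3025), and both w regions were called higher in leg than in gland. The other w region, at X 2795958 to 2796789, had 389 in EcR-RNAi wing, 139 in WT wing and 534 in leg. Its fold was the larger (log2 1.49 higher in EcR-RNAi wing, SE 0.44, adjusted p = 0.0108, authors' deposited table). At alphaTub84B, the tubulin gene of the cassette's name, a region had 614 in EcR-RNAi wing and 392 in WT wing, which passed the adjusted p without the floor (log2 0.65 higher in EcR-RNAi wing, adjusted p = 4.93e-04, authors' deposited table). The rest of its 3 regions did not pass: one had 331 in EcR-RNAi wing and 272 in WT wing, the other 204 in EcR-RNAi wing and 224 in WT wing. At vg, the wing selector used as driver, a region inside the gene had 605 in EcR-RNAi wing and 404 in WT wing, again under the floor (log2 0.58 higher in EcR-RNAi wing, adjusted p = 0.0114, authors' deposited table). Another vg region went the other way, with 218 in EcR-RNAi wing and 309 in WT wing, and the remaining 6 did not pass. The list of these loci also holds Hsp70Ba, which the genotype given above does not name. Its single region had 86.0 in EcR-RNAi wing and 77.6 in WT wing. Only 5 of the list's 11 genes, EcR included, had a region. Whether transgene DNA adds reads at EcR, vg, alphaTub84B or w was not tested.

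Among the partners of EcR the changes were small. Of 42 regions at 11 genes of the receptor and cofactor list, the 2 that rose and the 1 that fell all lay at EcR. On adjusted p alone 7 of the 42 were higher in EcR-RNAi wing (16.7%, against 5.38% of all regions) and 2 lower. These counts include EcR itself, which holds 8 of the 42 regions, 2 of the higher ones and 1 of the lower ones. Sin3A, a corepressor scaffold, held 3 of the higher ones, the largest with 110.4 in EcR-RNAi wing and 64.1 in WT wing (log2 0.78 higher in EcR-RNAi wing, adjusted p = 0.047, authors' deposited table). The coactivator gene tai had 1 such region and the corepressor gene Smr had 1 in the lower direction. Another of the 7 lay at Cdk4, a cyclin-dependent kinase gene that holds 5 of the list's regions. The 3 regions of usp, which encodes the dimer partner, had log2 folds of 0.36 to 0.92, all toward lower signal in EcR-RNAi wing, and none passed (authors' deposited table).

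Early ecdysone response genes changed in both directions, with more losses than gains on adjusted p alone. Their 24 genes held 185 regions, of which 4 fell and 3 rose, to be read against 1.24% and 0.789% of all tested regions. On adjusted p alone 33 of 181 tested regions were lower in EcR-RNAi wing (18.2%, against 10.4% of all regions) and 9 higher (4.97%, against 5.38%). Regions of this list were stronger than most, with a median count of 171 against 120.2 over all regions. Among the 3252 regions of highest counts the lower share was 22.4% for the list and 18.0% for all regions, which is a smaller gap. Among the 3252 of next lower counts the gap was wider, with 22.7% of 44 list regions and 9.47% of all. In the next 3252 the lower share was 10.8% for the list and 7.60% for all regions, and at the lowest counts 8.33% and 5.85%. The median log2 fold was 0.22 toward lower signal in EcR-RNAi wing for the list and 0.08 over all regions (authors' deposited table), and with centred folds 22 regions were lower and 14 higher, against 909 lower and 1046 higher over all regions.

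The transcription factor genes br and Eip74EF, classic early genes of the ecdysone cascade, carried most of the losses. Of 28 regions at br, 26 had a fold toward lower signal in EcR-RNAi wing and 10 passed the adjusted p alone, none in the other direction (authors' deposited table). The called one, at X 1621637 to 1622564, lies inside br and the overlapping gene Mur2B and had an estimated 114 in EcR-RNAi wing and 231 in WT wing. Its fall was 1.02 in log2 (SE 0.20, adjusted p = 4.29e-05, authors' deposited table), and centring took it to 0.94, under the floor. A neighbour at X 1578074 to 1579385 had 265 in EcR-RNAi wing and 486 in WT wing (log2 0.88 lower, SE 0.14, adjusted p = 3.83e-07, authors' deposited table). At Eip74EF, which encodes an ETS factor, 22 of 28 regions leaned the same way and 9 passed the adjusted p alone as lower. The called one, at 3L 17562385 to 17562724, had 32.4 in EcR-RNAi wing and 70.3 in WT wing (log2 1.12 lower, SE 0.31, adjusted p = 0.00671, authors' deposited table). The nuclear receptor gene Eip75B had 20 regions, of which 2 passed the adjusted p alone as lower and 1 as higher, the last with 277 in EcR-RNAi wing and 154 in WT wing. Leg discs had counts near those of WT wing at these regions, for example 263 at the br region and 77.9 at the Eip74EF region.

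The remaining called regions of the list split by direction. The region at vri, a bZIP repressor gene, had 135 in EcR-RNAi wing and 292 in WT wing (log2 1.12 lower, SE 0.20, adjusted p = 5.72e-06, authors' deposited table). That at Blimp-1, which encodes a zinc finger repressor of the prepupal timing circuit, had 73.3 in EcR-RNAi wing and 156 in WT wing (log2 1.09 lower, SE 0.24, adjusted p = 4.78e-04, authors' deposited table). Each of the regions that rose lay inside its gene. At E23, an ABC transporter gene whose product limits ecdysone action, the region had 199 in EcR-RNAi wing and 83.5 in WT wing (log2 1.25 higher, SE 0.21, adjusted p = 6.87e-07, authors' deposited table). At ftz-f1, the nuclear receptor gene of prepupal competence, it had 480 in EcR-RNAi wing and 228 in WT wing (log2 1.08 higher, SE 0.17, adjusted p = 1.02e-07, authors' deposited table). At Eip93F, which directs late metamorphic programs, it had 253 in EcR-RNAi wing and 118 in WT wing (log2 1.11 higher, SE 0.21, adjusted p = 3.68e-05, authors' deposited table). Other regions of these genes mostly did not pass on adjusted p alone: of 9 at E23 1 more passed, as lower, of 11 at ftz-f1 1 more as higher and 1 as lower, and of 8 at Eip93F no more. The secreted and metabolic members ImpL1, ImpE3 and Ldh each had 1 region that passed as higher without the floor.

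**Figure D3:**
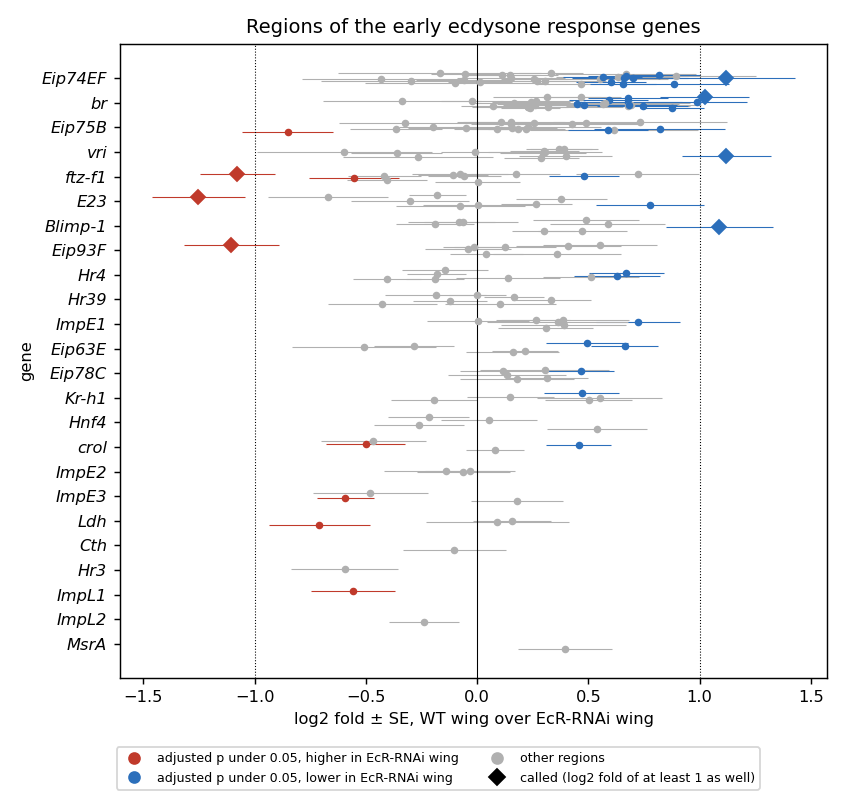
Each point is 1 region of an early ecdysone response gene, placed by the authors' log2 fold change of WT wing over EcR-RNAi wing with its SE, in rows by gene and spread vertically only for legibility. Points of br and Eip74EF lie mostly right of 0, lower in EcR-RNAi wing, and the called regions of E23, ftz-f1 and Eip93F lie left of -1.

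Wing identity and patterning genes had many small losses, as did several other lists. Of 425 regions at 54 genes 4 fell and none rose, although 7 passed the adjusted p alone as higher (authors' DESeq2 table). Over all tested regions 1.24% fell and 0.789% rose, so called losses were no more frequent in this list. A further 83 of 419 tested regions, the 4 included, passed as lower in EcR-RNAi wing (19.8%, against 10.4% of all regions), and 1.67% as higher, against 5.38%. The gap held among strong regions, with 29.6% of list regions among the 3252 of highest counts lower, against 18.0% of all such regions. With centred folds 56 regions were lower and 15 higher, against 909 lower and 1046 higher over all regions. Shares of lower regions on adjusted p alone were of like size in the cell death and stress list (19.2% of 78), the salivary gland list (9 of 45) and the haemocyte list (22.7% of 22). Of the called regions 2 lie near Wnt6, which encodes a Wnt ligand. The nearer one, at 2L 7333123 to 7333281, had 16.1 in EcR-RNAi wing and 41.9 in WT wing (log2 1.38 lower, SE 0.35, adjusted p = 0.00293, authors' deposited table). At brk, the repressor of Dpp targets, the called region had 49.9 in EcR-RNAi wing and 108 in WT wing (log2 1.12 lower, SE 0.26, adjusted p = 0.001, authors' deposited table). At fj, a kinase gene of planar polarity, it had 91.7 in EcR-RNAi wing and 193 in WT wing (log2 1.07 lower, adjusted p = 6.07e-04, authors' deposited table), and centring ended that call (0.99). By number, the genes with most losses on adjusted p alone were bi (7 of 23 regions), caup (7 of 12) and ptc (5 of 11), an order that partly follows how many regions a gene has. They encode a Dpp target, an Iroquois factor and the Hedgehog receptor. The 7 gains included 3 of 31 regions at hth, the gene of a hinge and proximal identity cofactor, and the vg region described above. In these bulk samples fewer cells of a type and less signal per cell cannot be told apart.

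Other programs of the prepupal disc had called regions at single genes, to be read against 0.789% of all regions that rose, 1.24% that fell, and 5.38% higher and 10.4% lower on adjusted p alone. In the apical matrix and eversion list 3 of 138 regions fell and 1 rose. The region at zip, the nonmuscle myosin heavy chain gene, had 54.1 in EcR-RNAi wing and 132 in WT wing (log2 1.29 lower, SE 0.22, adjusted p = 1.9e-06, authors' deposited table). At pio, a zona pellucida protein gene of the apical matrix, the called region had 203 in EcR-RNAi wing and 421 in WT wing (log2 1.05 lower, adjusted p = 3.24e-06, authors' deposited table; 0.97 with centred folds). The third was at the cell adhesion gene Nrg, with 108 in EcR-RNAi wing and 255 in WT wing. The gain was at dyl, another zona pellucida gene, with 295 in EcR-RNAi wing and 146 in WT wing (log2 1.02 higher, adjusted p = 5.99e-04, authors' deposited table). No region of the cuticle and chitin list was called, and on adjusted p alone 7 of 46 were higher in EcR-RNAi wing (15.2%) and 6 lower (authors' DESeq2 table). In the temporal identity list the called regions were those of br and Eip93F, with 18 of 101 lower (17.8%) and 3 higher (2.97%) on adjusted p alone. The proneural and sensory organ list had no call, with 12 of 73 lower (16.4%) and 3 higher (4.11%) on adjusted p alone (authors' DESeq2 table). Cell death and stress genes had 1 region that fell, at upd2, a JAK/STAT ligand gene, and 15 of 78 lower on adjusted p alone (19.2%). In the cell cycle list 1 of 68 regions rose, at foxo, with 4 of 67 higher (5.97%) and 3 lower (4.48%) on adjusted p alone. In the hippo growth control list 1 of 72 regions fell, at fj, with 2 of 71 lower (2.82%) and 2 higher on adjusted p alone (authors' DESeq2 table).

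Markers of other cell types held called regions too, to be read against 2.03% of all regions. A single region each fell in the haemocyte list (PPO2, of 22 regions), the neuron list (nvy, of 18) and the muscle list (TpnC41C, of 9), and 2 fell in the salivary gland list (Sgs3 and Pgant4, of 50). In the myoblast list 1 of 67 rose, at the RNA-binding protein gene how, and in the trachea list 1 of 66 rose, at the FGF gene bnl, while 1 fell, at vvl. The calls at vvl and Pgant4 ended with centred folds. On adjusted p alone the lower share was 22.7% of 22 haemocyte regions, 9 of 45 salivary gland, 17.6% of 17 neuron, 33.3% of 9 muscle, 12.1% of 66 trachea and 7.69% of 65 myoblast regions, against 10.4% of all regions. None of the 5 fat body regions was called, although 1 passed the adjusted p alone (authors' DESeq2 table). Summed estimated counts of the haemocyte list were 4193 in EcR-RNAi wing and 5145 in WT wing, those of myoblast 11541 in EcR-RNAi wing and 11746 in WT wing, and those of trachea 11010 in EcR-RNAi wing and 12379 in WT wing. The salivary gland list summed to 6833 in EcR-RNAi wing and 7981 in WT wing, and the neuron list to 2349 in EcR-RNAi wing and 2648 in WT wing. The muscle sum was 754 in EcR-RNAi wing and 875 in WT wing, and the fat body sum 523 in EcR-RNAi wing and 686 in WT wing. The sum over all regions was also lower in EcR-RNAi wing, 2012150 against 2142720. These lists do not all mark their cell type: the salivary gland list summed to 6799 in WT salivary gland and 8334 in WT leg. In WT salivary gland the muscle sum was 2188 and the neuron sum 2967, above both wing groups and leg. The called TpnC41C region had 290 there, 47.5 in WT wing and 20.7 in EcR-RNAi wing, and held no peak of either wing list. Only 9 of 15 haemocyte genes, 4 of 15 muscle genes and 2 of 11 fat body genes had a region at all, and the part of other cells in the calls was not tested. In the housekeeping list 1 of 38 regions rose, at the ubiquitin gene Ubi-p5E, with 32.3 in EcR-RNAi wing and 9.59 in WT wing.

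**Figure D4:**
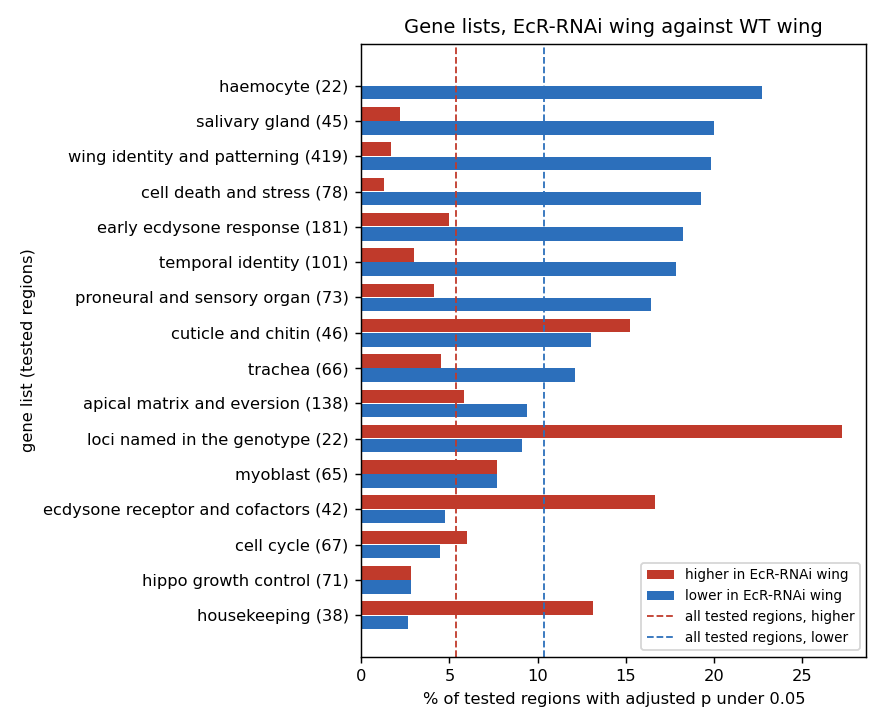
Bars give, for each gene list with at least 20 tested regions, the percentage of tested regions with an adjusted p under 0.05, higher (red) or lower (blue) in EcR-RNAi wing, and dashed lines give the same over all tested regions (5.38% and 10.4%). The wing identity list reached 19.8% lower and 1.67% higher, and the early ecdysone list 18.2% lower and 4.97% higher.

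Among regions at or above the median count, most of the 12 largest gains in EcR-RNAi wing, with 1 region per gene, lay outside these lists. The region at X 8294171 to 8295871, inside nAChRalpha3, an acetylcholine receptor subunit gene, and nearest to an end of CG1636, had 1813 in EcR-RNAi wing, against 82.9 in WT wing, 90.6 in WT leg and 1165 in salivary gland. It was 21.9-fold higher in EcR-RNAi wing (log2 4.45, SE 0.17, adjusted p = 2.68e-137, authors' deposited table). Near the tip of X, a region at 61209 to 62984 had 659 in EcR-RNAi wing, 33.7 in WT wing, 38.6 in leg and 192 in gland (log2 4.29 higher in EcR-RNAi wing, SE 0.23, adjusted p = 4.44e-68, authors' deposited table). Both regions were thus low in the wild type discs and higher in EcR-RNAi wing and gland. WT wing was also below EcR-RNAi wing and gland at gus, a SOCS box protein gene, where the region at 2R 5108037 to 5109792 had 372 in EcR-RNAi wing, 87.0 in WT wing and 576 in gland, and at mam, the gene of the Notch coactivator Mastermind, with 344 in EcR-RNAi wing, 113 in WT wing and 353 in gland. A region near CG9380 had 277 in EcR-RNAi wing, 52.8 in WT wing and 184 in gland (SE of the log2 fold 0.55, authors' deposited table). At 6 further regions, 4 of them at the tip of 3L near mthl8 and CG43149, 1 inside mdu and 1 beside the nAChRalpha3 region, the authors' table lists wing against leg at 0, so no fold is given. All 6 were called higher in EcR-RNAi wing, with adjusted p from 2.58e-10 to 6.87e-07 in the authors' deposited table. The names of the gland peaks carry another prefix (EcRmimic) than those of WT wing and leg (OR), and what the prefix stands for is unknown. Whether the gland animals share background with the EcR-RNAi stock was not tested.

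EcR-RNAi wing had the highest level of all 4 groups at further gains. At Dif, an NF-kappaB factor gene of the immune response, the region had 363 in EcR-RNAi wing, 135 in WT wing, 167 in leg and 156 in gland (log2 1.43 higher in EcR-RNAi wing, SE 0.18, adjusted p = 8.66e-12, authors' deposited table). EcR-RNAi wing was there above all 3 wild type tissues, as at the first EcR region. The region at PGRP-LA, a peptidoglycan recognition protein gene, had 507 in EcR-RNAi wing, 186 in WT wing and 304 in gland (log2 1.45 higher in EcR-RNAi wing, SE 0.16, adjusted p = 9.46e-17, authors' deposited table). One inside CG11030 had 623 in EcR-RNAi wing, 230 in WT wing and 358 in gland. Gland was instead highest at the cytochrome P450 genes Cyp28d2 and Cyp28d1. There a run of 5 neighbouring regions over 4869 bp on 2L rose together, with log2 folds from 1.02 to 1.44 in the authors' deposited table. The strongest of that run by count, at 2L 5207627 to 5209190, had 193 in EcR-RNAi wing, 86.4 in WT wing and 525 in gland.

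The 12 largest losses at or above the median count, with 1 region per gene, lay at genes of diverse function and, for ATbp, in the interval of X described below. The second largest of the 12 was 10515.5 bp from tweek: the 2L interval 16927244 to 16927891 had 56.4 in EcR-RNAi wing, 253 in WT wing and 294 in leg, but 59.4 in gland (log2 2.16 lower in EcR-RNAi wing, SE 0.23, adjusted p = 2.17e-17, authors' deposited table). At PPO2, a prophenoloxidase gene of crystal cells, the region had 50.6 in EcR-RNAi wing, 177 in WT wing and 142 in gland (log2 1.81 lower in EcR-RNAi wing, SE 0.25, adjusted p = 2.15e-10, authors' deposited table). At Br140, a bromodomain protein gene, it had 57.2 in EcR-RNAi wing, 196 in WT wing and 138 in gland (log2 1.78 lower in EcR-RNAi wing, SE 0.27, adjusted p = 1.18e-08, authors' deposited table). EcR-RNAi wing was there below all 3 wild type tissues. Tab2, an adaptor gene of immune signalling, had 51.8 in EcR-RNAi wing and 129 in WT wing, and FASN2, a fatty acid synthase gene, 107 in EcR-RNAi wing and 239 in WT wing. The regions at the potassium channel gene SK (83.9 in EcR-RNAi wing, 205 in WT wing), Ggt-1 (71.4 in EcR-RNAi wing, 164 in WT wing), scat (62.1 in EcR-RNAi wing, 138 in WT wing) and CG42524 (75.2 in EcR-RNAi wing, 169 in WT wing) made up most of the rest of the 12 largest. The strongest, at CG42788, had 202 in EcR-RNAi wing and 450 in WT wing, and with 2 neighbours it formed a run of 3 lost regions over 7914 bp on 3R.

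A part of the losses lay close together in stretches of X, 3R and Y. The last assembled part of X, from 23 to 24 Mb, held 24 of the 156 regions that fell among its 44 regions, the 24 all far from their nearest gene, ATbp, with a median log2 fold of 1.25 over the 44 (authors' deposited table). The first Mb of 3R added 6 of 15 regions, all nearest to Myo81F, and Y added 5 of 14. In the X interval the median estimated count was 45.1 in EcR-RNAi wing, 90.8 in WT wing, 99.9 in leg and 4.52 in gland. On Y it was 37.0 in EcR-RNAi wing, 81.5 in WT wing, 90.9 in leg and 4.65 in gland, although all libraries are labelled female. The longest run of losses, 6 regions over 4224 bp at X 23386559 to 23390782, had log2 folds from 1.22 to 2.29, and a run of 4 near Myo81F reached 3.01 in the authors' deposited table. A set of 93 regions was left out as a check after the data were seen: Y, each 1 Mb interval whose median log2 fold of leg over gland is at least 2, and the 6 regions with wing against leg at 0. Without it 93 regions rose and 120 fell. The part of the animals' sex in these losses was not tested.

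Called regions behaved in opposite ways between WT leg and WT salivary gland, whose 4 libraries belong to neither wing group. For regions that rose in EcR-RNAi wing the median of the leg over gland log2 fold was -0.83, so they were higher in gland, against 0.17 for regions not called. Regions that fell had a median of 1.07, higher in leg (authors' deposited table). Of the 99 that rose, 43.4% were called higher in gland than in leg, against 13.3% of all regions, and 5.05% higher in leg, against 22.6%. Of the 156 that fell, 51.9% were called higher in leg and 3.21% higher in gland. Without the 93 regions named above, 39.8% of those that rose were higher in gland and 5.38% higher in leg, and 37.5% of those that fell were higher in leg and 4.17% higher in gland. That set was picked in part by the same leg over gland fold, so these shares are no independent check. Over all 13008 regions the log2 fold of WT wing over EcR-RNAi wing and that of leg over gland had a Pearson r of 0.42 and a Spearman rho of 0.41. Regions are not replicates, and all folds come from a single set of 8 libraries, with mean counts pooled over all of them, so the measures are not fully independent and no p is given.

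The peak lists were then set against the called regions. A leg peak overlapped 31.3% of the regions that rose (95% exact binomial interval 22.4 to 41.4%), 96.2% of those that fell (91.8 to 98.6%) and 83.2% of those not called. A gland peak overlapped 55.6% of the regions that rose (45.2 to 65.5%), 24.4% of those that fell (17.9 to 31.9%) and 53.8% of those not called. In the lists of the compared groups, 92.9% of the regions that rose held an EcR-RNAi wing peak and 25.3% a WT wing peak. Of the regions that fell, 39.7% held an EcR-RNAi wing peak and 97.4% a WT wing peak. Intervals cover counting error only and treat regions as independent, although some called regions lie in runs. WT leg was near WT wing at the called regions. The median log2 fold of wing over leg was -0.05 for those that rose and -0.08 for those that fell (authors' deposited table). The leg shares are thus not independent of the calls, which were made against WT wing.

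**Figure D5:**
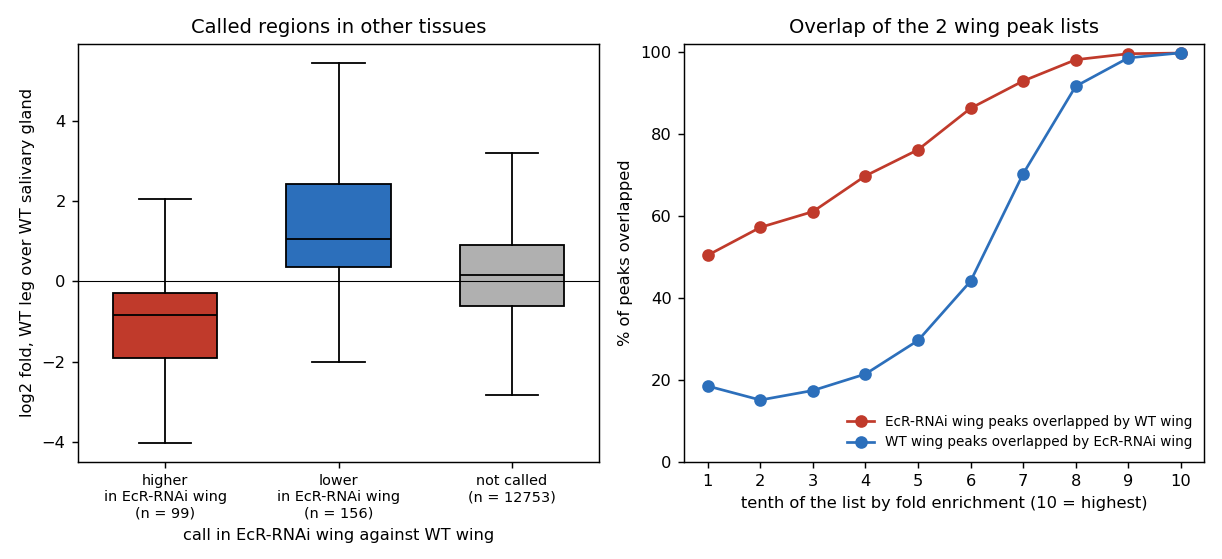
Left, boxes give the median and quartiles, with whiskers to the farthest region within 1.5 interquartile ranges, of the authors' log2 fold of WT leg over WT salivary gland for regions higher, lower or not called in EcR-RNAi wing against WT wing, with medians of -0.83, 1.07 and 0.17. Right, each list of wing peaks is cut into 10 parts of near equal size by the authors' fold enrichment, and the lines give the percentage of peaks overlapped by at least 1 base by the other list, which is 99.8% in the highest part of both lists.

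The merged peak lists differed mostly in their weak peaks. EcR-RNAi wing had 18464 peaks of median width 274 bp, and WT wing had 29283 of median width 236 bp. Fold enrichments, which are the authors' own, had medians of 3.39 in EcR-RNAi wing and 2.82 in WT wing. In the highest of 10 classes of fold enrichment, 99.8% of EcR-RNAi wing peaks and 99.8% of WT wing peaks had a partner in the other list. In the lowest class the share was 50.4% for EcR-RNAi wing peaks and 18.4% for WT wing peaks. The 3851 EcR-RNAi wing peaks without a WT wing partner overlapped a leg peak in 21.8% of cases and a gland peak in 40.8%. The 14460 WT wing peaks without an EcR-RNAi wing partner overlapped a leg peak in 61.2% and a gland peak in 4.07%. Of peaks with a partner, 86.9% in EcR-RNAi wing and 86.7% in WT wing overlapped a leg peak, and 42.6% in EcR-RNAi wing and 41.9% in WT wing a gland peak. The gland list was restricted by fragment size, per its file name, which the other lists were not. Peaks come from merged libraries, per the file names, so these counts have no replicate check, and the depth behind each list is unknown.

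Called regions lay away from gene ends. Of the regions that rose, 25.3% were centred within 500 bp of a gene end (17.1 to 35.0%), of those that fell 17.3% (11.7 to 24.2%), and of those not called 36.3%. Regions inside a gene body made up 63.6% of those that rose, 52.6% of those that fell and 70.1% of those not called. Without the 93 regions the share was 68.3% for those that fell and 70.4% for those not called, and 22.5% of those that fell lay within 500 bp of a gene end, against 36.5% of those not called. The regions were also weaker and narrower than the others: the median count was 83.1 for those that rose, 78.2 for those that fell and 121 for those not called, and the median width 450, 379 and 511 bp. By chromosome, X had the smallest share of gains among the large arms (0.523%) and the largest share of losses (1.87%), 24 of its 43 losses coming from the interval above. On 2L gains and losses were near equal (24 and 25 regions), and 3L had 23 gains and 20 losses. Some called regions followed one another: 22 of the 99 regions that rose lay in 8 runs of consecutive called regions, and 43 of the 156 that fell lay in 17 runs. Many of the lost regions in runs lay in the stretches of X, 3R and Y above. A run can be wide, up to 182124 bp, and no share to compare with was computed.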

How the data were processed

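FAIRE-seq of 8 Drosophila libraries was used. The submitters' processing notes name the build dm6 and the tools MACS2 2.1.2, DESeq2, R 3.5.2, bedtools 2.26, Bowtie2 2.3.4.1, Picard 2.2.4 and SAMtools 1.9, without order or settings. The authors deposited merged peak lists with a score, a fold enrichment (a ratio to local background) and −log10 q-values. The authors deposited comparison tables with a mean normalized count (a signal over all libraries), a log2 fold change with SE, a test statistic (a score), and p-values before and after adjustment. The sign follows the authors' category column in all 1977 regions with one: positive is higher in WT wing. No count per library is held in them, so no model was refitted and depth is unknown. The 465 regions without an adjusted p (mean count at most 28.9) were never called.

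Starts were raised by 1 to browser coordinates, since 2880 of the table's starts equal a listed peak start as written and 72 equal it plus 1. Group levels were estimated from the mean count and the folds of WT wing over each other group. These folds closed within 0.001 with leg over gland in 13002 regions; the other 6 have wing against leg listed at 0. In 10 called regions the fold over its SE differed from the statistic by over 5%, by up to 2.07 times, and calls use the adjusted p. Each region went to the protein-coding or listed gene with the nearest end (RefSeq, Release 6, 13946 genes, no strand). Exons and sequence were not analysed here. Of 428 listed symbols in 19 lists, 421 matched; let-7-C, Dl, dp, ban, Tor, d and tal did not. Members and lists were chosen with earlier results of these data known.

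Peaks were compared at an overlap of at least 1 base. The text names all regions of EcR and of the loci in the genotype, called early ecdysone regions, the 12 largest called changes per direction at or above the median count (1 per gene), up to 4 genes per other list and the 3 longest runs. Regions named beyond this rule, such as those that passed the adjusted p alone, were chosen after their values were seen. Recomputed p-values used fold over SE with Benjamini-Hochberg adjustment (Python 3.11.15, numpy 2.4.6, pandas 2.3.3, scipy 1.17.1), tested on simulated data. The figures used matplotlib 3.10.9.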

Additional observations from a re-analysis of the deposited data

How the results depend on the processing

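The table holds no value per library, so leaving out a replicate could not be run. No paired analysis was possible because the deposited comparison has no value per library. With no fold floor 675 regions were higher in EcR-RNAi wing and 1302 lower, with a log2 floor of 1.5 there were 23 and 24, and among regions at or above the lower quartile of the mean count 63 and 91. For the early ecdysone list no floor gave 9 higher and 33 lower and the 1.5 floor 0 and 0. For the wing identity list no floor gave 7 higher and 83 lower, the 1.5 floor left 0 lower, the count minimum left 2 lower, and centring on all regions gave 1 higher. Of EcR-RNAi wing peaks 68.1% overlapped WT wing peaks with at least 50% of both peaks shared and 89.6% with each list cut at its median fold enrichment. Of WT wing peaks these shares were 43.0% and 57.8%, and 76.9% with both lists at a −log10 q of at least 10. Within 1000 bp of a gene end lay 33.3% of the regions that rose, 25.0% of those that fell and 45.9% of those not called. Leaving out the 93 regions named in the text, a choice made after the data were seen, left 37.5% of the regions that fell higher in leg than in gland. The choice used the leg over gland fold itself, so a lower share was built into it. The causes were not tested. Centring on all regions ended 6 of 79 named calls or values (EcR, br, fj, pio, vvl and Pgant4), an adjusted p of 0.01 ended 5, and no named call turned its direction under any alternative run. The 79 include uncalled regions at EcR, vg, alphaTub84B and Hsp70Ba, which had no call to lose, so the share of calls that ended is larger. A log2 floor of 1.5 ended 44. Regions of low count had a larger SE, and depth per library is unknown.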
